A study of Rattus norvegicus with 15 samples.

Results

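The Hippo and YAP/TAZ genes described here were 10 genes chosen by symbol: the transcriptional co-activators Yap1 and Wwtr1 (TAZ), their DNA-binding partner Tead1, the kinase Lats2, the angiomotin-like scaffolds Amotl1 and Amotl2, and the targets Ctgf, Cyr61, Ankrd1 and Axl. Of these, 9 were found by symbol among the 17055 genes counted, and Amotl1 was not analysed here. The genes were selected with earlier results of the same libraries known, so their differences between miR-17-5p and control cells are given as a description, and the adjusted p-values only place each gene within the fit of all genes. Levels are counts per 1000000 counts (CPM), scaled by the trimmed mean of M-values (TMM) within each library type. They are not divided by transcript length, so each gene is compared only with itself.

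The libraries came from islets of 10-day-old Sprague-Dawley rats, dispersed and then transfected with miR-17-5p or with a control miRNA mimic. Poly(A) mRNA was sequenced from 5 miR-17-5p and 3 control libraries. RNA held by the RNA-induced silencing complex (RISC), recovered by precipitating its Argonaute protein Ago2, was sequenced from 4 miR-17-5p and 3 control libraries. The labels state no sorting, so hormone cells and the stromal, endothelial and immune cells of the islet can all contribute RNA. No library of untransfected cells was analysed here, and the labels do not say how many rats gave each library. Titles number the libraries within each group, and these numbers are used here. The descriptions name a different biological replicate for each of the 8 mRNA libraries, but 1 and the same biological replicate for all 7 RISC libraries, the one also named for miR-17-5p mRNA replicate 6. Whether the RISC libraries came from separate cell preparations cannot be told from the labels. In every RISC comparison n, SD, SE and p therefore count libraries, not known separate preparations, and their spread may be technical in part or in whole.

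In the Hippo pathway, the kinases Lats1 and Lats2 phosphorylate Yap1 and Wwtr1 and keep them in the cytoplasm, where they are degraded. When the kinases are inactive, as on stiff substrates or in spread cells, both co-activators enter the nucleus and bind TEAD factors on genes such as Ctgf, Cyr61 and Ankrd1. Lats2 and Amotl2 are themselves YAP targets that feed back on the pathway, and in mouse and human islets the endocrine cells are known for very low Yap1. A microRNA guides Ago2 to messages that match its seed, bases 2 to 8, and usually lowers their level.

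The mimic used carries the seed shared by 5 mature rat miRNAs in RefSeq (GRCr8), shown because miR-17-5p recognises messages by it. Capitals mark the seed, and all 5 have the same one.
rno-miR-17-5p: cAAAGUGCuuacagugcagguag
rno-miR-20a-5p: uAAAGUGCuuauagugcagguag
rno-miR-20b-5p: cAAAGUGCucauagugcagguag
rno-miR-93-5p: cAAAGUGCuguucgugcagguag
rno-miR-106b-5p: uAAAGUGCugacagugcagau
In that assembly miR-17-5p lies at chr15:98587861-98587883 on the forward strand, and the Mir106a gene on chromosome X gives a mature miRNA of the same name and sequence. The level of the miRNA itself was not analysed here.

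RefSeq promoter windows (250 bases before to 50 after the start, GRCr8) were found for 6 of the 9 measured genes. They were searched on both strands for the TEAD core motif GGAATG, which reads CATTCC on the other strand. The windows of Ctgf, Cyr61, Amotl2 and Yap1 held at least 1 match and those of Wwtr1 and Axl held none; Tead1, Lats2 and Ankrd1 had no entry. Of all 33469 rat promoters of this length, 14.2% held the motif. The 250 bases before the start of the 4 genes with a match are printed on the strand of the gene, with capitals marking the motif.
Ctgf (Ccn2), chr1:22624615-22624864, reverse strand: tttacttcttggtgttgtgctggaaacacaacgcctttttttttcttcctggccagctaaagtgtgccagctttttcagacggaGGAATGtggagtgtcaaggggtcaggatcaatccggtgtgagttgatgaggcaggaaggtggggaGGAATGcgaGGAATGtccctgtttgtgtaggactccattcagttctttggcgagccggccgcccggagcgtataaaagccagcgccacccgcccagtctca
Cyr61 (Ccn1), chr2:237225690-237225939, reverse strand: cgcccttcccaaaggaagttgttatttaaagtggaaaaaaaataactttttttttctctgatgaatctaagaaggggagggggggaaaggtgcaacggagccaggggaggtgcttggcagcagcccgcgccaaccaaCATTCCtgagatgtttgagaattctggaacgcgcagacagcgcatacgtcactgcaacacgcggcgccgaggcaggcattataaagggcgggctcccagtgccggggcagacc
Amotl2, chr8:112182376-112182625, forward strand: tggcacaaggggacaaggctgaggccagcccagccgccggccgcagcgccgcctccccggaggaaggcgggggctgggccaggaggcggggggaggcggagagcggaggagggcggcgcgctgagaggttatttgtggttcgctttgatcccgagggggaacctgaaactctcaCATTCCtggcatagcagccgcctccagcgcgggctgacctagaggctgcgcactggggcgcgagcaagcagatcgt
Yap1, chr8:13451438-13451687, reverse strand: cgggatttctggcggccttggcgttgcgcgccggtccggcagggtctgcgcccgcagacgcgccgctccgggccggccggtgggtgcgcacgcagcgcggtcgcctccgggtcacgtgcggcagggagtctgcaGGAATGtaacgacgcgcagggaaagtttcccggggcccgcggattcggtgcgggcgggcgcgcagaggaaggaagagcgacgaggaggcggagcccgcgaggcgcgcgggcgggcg
Ctgf held 3 copies, which began 166, 101 and 92 bases before the start. The single copies began 113 bases before it in Cyr61, 76 in Amotl2 and 116 in Yap1. A match is a stretch of letters and not a measured binding site. Wwtr1 and Axl, without a match, also had fitted mRNA fold changes above 0. Whether the motif has a part in any difference was not tested.

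Library totals ran from 3379456 to 21056240 counts. The lowest was control mRNA replicate 3 and the highest miR-17-5p mRNA replicate 1. Control RISC libraries had a count for 5589 to 7424 genes, fewer than the 9040 to 10753 of the miR-17-5p RISC libraries and the 11142 to 12997 of the mRNA libraries. The 10 measured beta cell markers summed to 257756 to 477693 CPM in miR-17-5p mRNA libraries and 365218 to 441778 CPM in control mRNA libraries, so beta cell messages were a large part of the RNA. Ins1 and Ins2 are near-identical copies, and the split between them is uncertain.

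In poly(A) mRNA all 9 genes had a higher fitted level with miR-17-5p, and 6 of them were called by edgeR, with an adjusted p under 0.05 after correction over all 11077 genes. Across all genes 3.11% were called higher and 3.87% in either direction. The 6 were Yap1, Tead1, Amotl2, Ctgf, Cyr61 and Ankrd1. Their groups did not overlap, which was so for 8.51% of all genes in that direction. The median log2 fold change of the 9 was 1.09, beside 0.01 over all genes. In bulk RNA, fewer cells of a type and less RNA per cell cannot be told apart.

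Among the co-activators, Yap1 had 21.9, 27.3, 28.3, 28.2 and 24.3 CPM in miR-17-5p mRNA replicates 1, 2, 4, 5 and 6, against 16.2, 10.8 and 8.74 CPM in control replicates 1, 2 and 3. Every miR-17-5p library lay above every control library, and the control libraries spread over a wider relative range. Yap1 rose by a log2 fold change of 1.09 ± 0.23 (SE, adjusted p = 0.0211). Wwtr1, which encodes TAZ, averaged 16.3 ± 4.03 CPM in miR-17-5p libraries and 8.42 ± 5.05 CPM in control libraries (SD, n = 5 and 3). Its groups overlapped, since control replicate 1 reached 13.5 CPM, above 2 of the miR-17-5p libraries, while control replicate 3 held 3.43 CPM from 11 counts. Its log2 fold change of 0.89 ± 0.36 did not pass (adjusted p = 0.199).

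Tead1, the factor through which Yap1 and TAZ reach DNA, had 19.8, 26.6, 21.7, 18.2 and 22.01 CPM in miR-17-5p mRNA replicates 1, 2, 4, 5 and 6, against 9.86, 9.81 and 13.1 CPM in control replicates 1, 2 and 3. The groups were apart, and here the highest control library was replicate 3, which was the lowest for Yap1. Tead1 rose by 1.01 ± 0.23 on the log2 scale (adjusted p = 0.0267). Lats2, the kinase that restrains both co-activators, ranged from 34.4 to 60.4 CPM in miR-17-5p libraries and from 23.4 to 36.3 CPM in control libraries. Its groups overlapped and its log2 fold change, 0.50 ± 0.21, was the smallest of the 9 (adjusted p = 0.209).

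Amotl2, a junction scaffold that binds Yap1 and is itself induced by it, had 113, 156, 154, 128 and 137 CPM in miR-17-5p mRNA replicates 1, 2, 4, 5 and 6, against 59.8, 42.2 and 44.9 CPM in control replicates 1, 2 and 3. The lowest miR-17-5p library was well above the highest control library. Amotl2 rose by 1.48 ± 0.16 on the log2 scale (adjusted p = 8.41e-04) and had the fifth smallest p among all genes.

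The secreted matricellular proteins Ctgf and Cyr61 are the most used read-outs of YAP/TAZ activity. Ctgf had 404, 764, 1074, 743 and 840 CPM in miR-17-5p mRNA replicates 1, 2, 4, 5 and 6, against 352, 284 and 192 CPM in control replicates 1, 2 and 3. The groups stood apart by a narrow margin, because miR-17-5p replicate 1 lay close to control replicate 1. Ctgf rose by 1.47 ± 0.28 on the log2 scale (adjusted p = 0.0148). Cyr61 had 210, 374, 403, 318 and 328 CPM in the miR-17-5p libraries, against 179, 141 and 100 CPM in the control libraries, in the same replicate order. Its order of libraries was close to that of Ctgf, with miR-17-5p replicate 1 again the lowest of its group and control replicate 3 again the lowest of all. Cyr61 rose by 1.21 ± 0.22 on the log2 scale (adjusted p = 0.00955).

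Ankrd1, a nuclear ankyrin-repeat protein of stretched muscle and a direct YAP target, showed the largest mRNA fold change of the 9 genes. It had 29.4, 46.8, 35.6, 25.0 and 24.7 CPM in miR-17-5p mRNA replicates 1, 2, 4, 5 and 6, against 8.26, 5.96 and 6.24 CPM in control replicates 1, 2 and 3. Here replicate 1 was in the middle of the miR-17-5p libraries, unlike for Ctgf and Cyr61. Ankrd1 rose by 2.22 ± 0.27 on the log2 scale (adjusted p = 0.00125), with 20 to 88 counts behind the control values. Axl, a receptor tyrosine kinase for Gas6, ranged from 87.8 to 152 CPM in miR-17-5p libraries and from 62.1 to 102 CPM in control libraries. The groups overlapped through miR-17-5p replicate 1 and control replicate 1, and the log2 fold change of 0.69 ± 0.20 did not pass (adjusted p = 0.0711).

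The 6 calls did not rest equally on all libraries. Without control mRNA replicate 2, or without control mRNA replicate 3, only Amotl2 and Ankrd1 of the 9 passed, and without miR-17-5p replicate 4 Amotl2, Ctgf, Cyr61 and Ankrd1 did. Calls over all genes moved too, from the 3.87% with all libraries. With miR-17-5p replicates 1, 2, 4, 5 and 6 left out in turn they came to 7.42%, 3.75%, 1.72%, 2.15% and 2.28%. With control replicates 1, 2 and 3 left out in turn they came to 2.78%, 0.949% and 0.750%. Counts of calls with an mRNA library left out are to be read against these shares. Leaving out any of the other 5 mRNA libraries left 5 to 7 calls. Among these, Tead1 was lost when control replicate 1 was left out and when miR-17-5p replicate 6 was, Yap1 was lost without miR-17-5p replicate 5, and Axl passed without replicate 1 of either group. Over the 8 mRNA libraries the 36 pairs among the 9 genes had Pearson's r of log2 CPM between 0.45 and 0.99, with a median of 0.84. These r values describe libraries that share their treatment and their mix of cells.

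**Figure D1:**
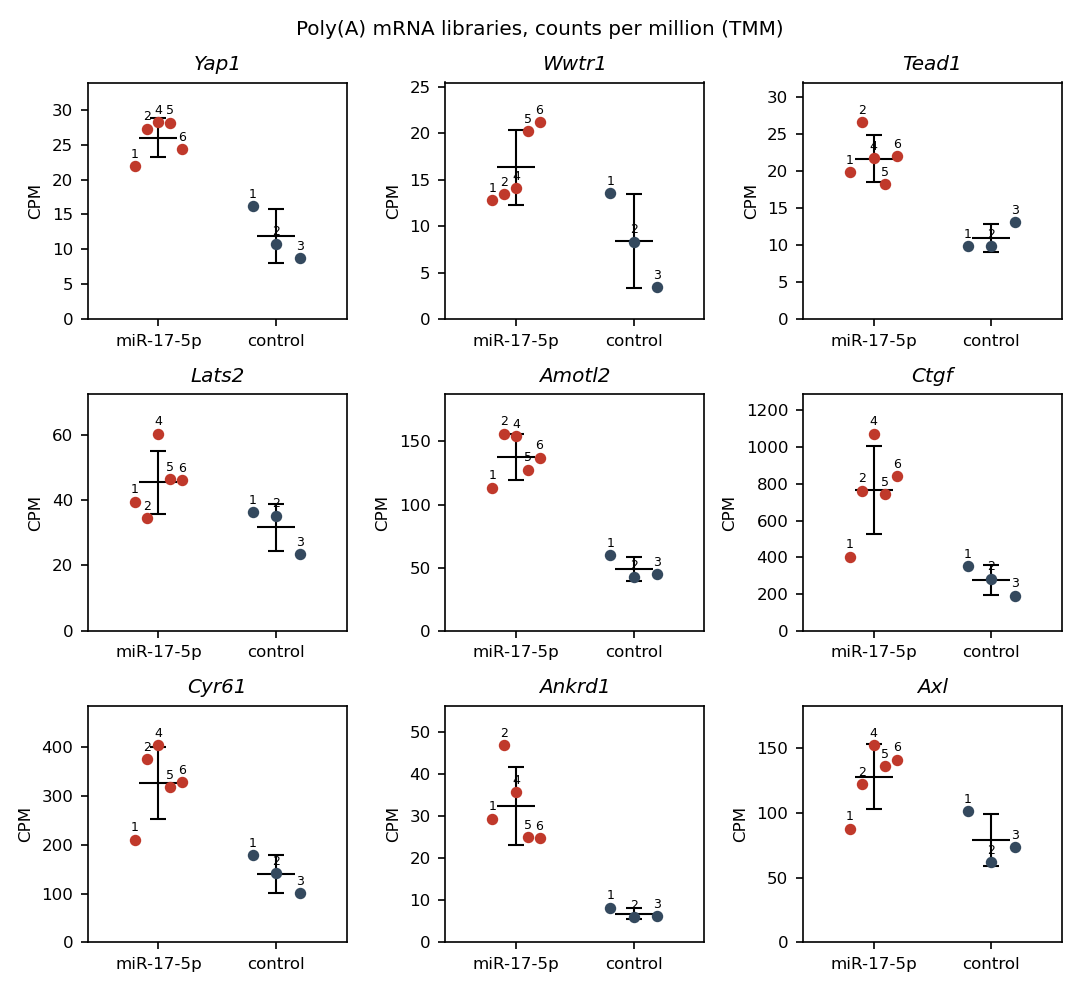
CPM (TMM) of the 9 genes in each poly(A) mRNA library, miR-17-5p in red and control in dark blue, numbered by replicate, with the mean and SD of each group. The groups are apart for Yap1, Tead1, Amotl2, Ctgf, Cyr61 and Ankrd1 and overlap for Wwtr1, Lats2 and Axl.

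Stromal markers moved in the same libraries. The 14 stellate and fibroblast markers measured, among them the fibrillar collagens Col1a1 and Col3a1, the contractile proteins Acta2 and Tagln and the surface protein Thy1, summed to 13858 to 29889 CPM in miR-17-5p mRNA libraries and 7868 to 13630 CPM in control mRNA libraries, without overlap. Col1a1 and Col3a1 made up 76.1% to 81.8% of the sum in miR-17-5p mRNA libraries and 83.3% to 85.7% in control mRNA libraries. The other 12 summed to 3310 to 6010 CPM in miR-17-5p libraries and 1315 to 1955 CPM in control libraries, also without overlap. Of the 13 tested, 6 rose and none fell (edgeR), beside 3.11% of all genes called higher. Fold changes above 0 were found for 11 of the 13, with a median log2 fold change of 0.71. Those with the smallest p, Acta2, Tagln and Thy1, had 1.97 ± 0.25, 1.69 ± 0.20 and 1.12 ± 0.18 (adjusted p = 0.00128, 0.00105 and 0.00528). Without control mRNA replicate 2 or miR-17-5p mRNA replicate 4, 3 of the 13 rose, and without control mRNA replicate 3, 2 did. Col1a2, a fibrillar collagen, was listed at 0 in all 15 libraries. The 8 mRNA libraries stood in the same order by marker sum as by Cyr61: miR-17-5p replicates 4, 2, 6, 5 and 1, then control replicates 1, 2 and 3. The sum was 13858 CPM in miR-17-5p replicate 1 and 13630 CPM in control replicate 1, the narrowest gap between the groups.

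Per 1000 CPM of these markers, a scale that follows mainly both collagens, the 2 groups overlapped for 7 of the 9 genes; over all genes the groups did not overlap for 37.7% on this scale. Ctgf had 29.1 to 35.9 in miR-17-5p mRNA libraries and 24.3 to 30.5 in control mRNA libraries, an overlap at the edges. Yap1 had 0.946 to 1.58 in miR-17-5p libraries and 1.11 to 1.18 in control libraries, the controls lying within the other range. Amotl2 had 5.16 to 8.18 in miR-17-5p libraries and 4.39 to 5.71 in control libraries, an overlap of 1 control library with the lower end. Ankrd1 stayed apart and higher, at 1.04 to 2.12 in miR-17-5p libraries and 0.606 to 0.793 in control libraries. Axl was apart and lower, at 5.09 to 6.48 in miR-17-5p libraries and 6.67 to 9.36 in control libraries. This scale was chosen after the levels were seen, and the part of the stromal markers in the mRNA differences was not tested.

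**Figure D2:**
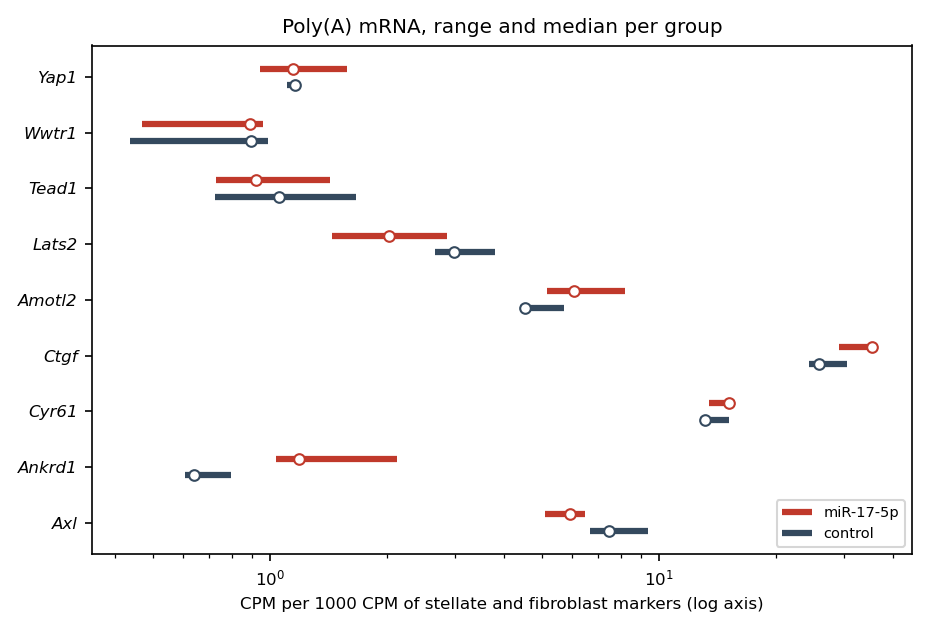
CPM of each gene per 1000 CPM of the summed stellate and fibroblast markers in the poly(A) mRNA libraries, on a log axis; bars run from the lowest to the highest library and circles mark the median (miR-17-5p above, control below). The bars are apart for Ankrd1, higher with miR-17-5p, and for Axl, lower with miR-17-5p.

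Markers of the other islet cells were read in the same mRNA libraries. None of the 10 beta cell markers passed in mRNA by edgeR, with 5 at an unadjusted p under 0.05, as had 19% of all genes. Without miR-17-5p mRNA replicate 1, edgeR called 5 of them lower, beside 2.48% of all genes, and 9 had an unadjusted p under 0.05, beside 22.1% of all genes. DESeq2 and limma-voom called 3 and 4 lower with all libraries, where they called 2.43% and 3.91% of all genes lower. All 10 had fold changes below 0, and for Pdx1, with the smallest p, the log2 fold change was −0.60 ± 0.17 (adjusted p = 0.0600). The 12 endothelial markers summed to 166 to 328 CPM in miR-17-5p mRNA libraries and 192 to 295 CPM in control mRNA libraries, with overlap. Of these the junction cadherin Cdh5 and the receptor Kdr fell, by 1.88 ± 0.36 and 1.99 ± 0.44 on the log2 scale (adjusted p = 0.0121 and 0.0261), and the other 9 tested did not pass by edgeR. The directions were mixed, with 3 of the 11 tested above 0. Eng, a TGF-beta co-receptor, had 0.68 ± 0.21 (adjusted p = 0.0984), and DESeq2 and limma-voom called it higher. No endothelial marker was called without control mRNA replicate 1, and 1 was without control replicate 2, control replicate 3, miR-17-5p replicate 4 or miR-17-5p replicate 5. The 10 macrophage and leukocyte markers summed to 88.9 to 242 CPM in miR-17-5p mRNA libraries and 36.5 to 177 CPM in control mRNA libraries. Their fold changes all lay above 0, with a median of 0.85 on the log2 scale. None of them passed by edgeR, DESeq2 or limma-voom, and 1 had an unadjusted edgeR p under 0.05. Without control mRNA replicate 2, 7 had such a p, beside 14.5% of all genes, and 1 was called higher, as 1 was without miR-17-5p mRNA replicate 1. The hormone genes Ghrl and Pyy fell, and so did Epcam, an adhesion protein on the duct list. Their log2 fold changes were −1.13 ± 0.20, −0.80 ± 0.17 and −0.66 ± 0.13 (adjusted p = 0.00894, 0.0183 and 0.0138). On the duct list 5 markers were tested, and Epcam was the only edgeR call, beside 0.767% of all genes called lower. The list had a median log2 fold change of −0.50, with 1 marker above 0, so Epcam is not read as a change of duct cells. Ghrl and Pyy were the only edgeR calls among 8 markers of the other hormone cells. Of these 8, 1 lay above 0, and the median log2 fold change was −0.63. An unadjusted p under 0.05 was found for 5, beside 19% of all genes. DESeq2 and limma-voom each called 4 lower, beside 2.43% and 3.91% of all genes. Neither hormone gene call held without control mRNA replicate 1 or without control mRNA replicate 2, and the Epcam call was lost without control mRNA replicate 2 or 3. Of 5 acinar and 5 Schwann markers tested none passed by edgeR, DESeq2 or limma-voom, with 1 and 0 at an unadjusted edgeR p under 0.05.

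The wider pathway was read from lists chosen with the fold changes of other genes of these libraries known. Of 22 core components and regulators listed, 19 were tested in mRNA. Among them 4 rose and 1 fell, beside 3.11% of all genes called higher and 0.767% called lower. Fold changes above 0 were found for 12 of the 19, and the median log2 fold change was 0.46. Fat4, a giant cadherin related to the fly Hippo regulator Fat, averaged 30.6 ± 8.65 CPM in miR-17-5p libraries and 12.1 ± 0.585 CPM in control libraries (SD, n = 5 and 3) and rose by 1.33 ± 0.26 on the log2 scale (adjusted p = 0.0130). Wwc2, a KIBRA-family scaffold that activates the LATS kinases, rose by 1.32 ± 0.30 (adjusted p = 0.0298), Frmd6, a FERM protein upstream of the kinases, by 0.96 ± 0.19 (adjusted p = 0.0148), and Map4k4, a kinase that acts in parallel to the MST kinases, by 0.61 ± 0.15 (adjusted p = 0.0375). All 4 act, in textbook accounts, to restrain Yap1. Taok2, a kinase that can activate the MST kinases, averaged 110 ± 11.7 CPM in miR-17-5p libraries and 160 ± 15.2 CPM in control libraries and fell by 0.54 ± 0.12 (adjusted p = 0.0310). Ajuba, a LIM protein that inhibits LATS, did not pass, at 1.42 ± 0.37 (adjusted p = 0.0519). The kinase adaptor Mob1a had 0.56 ± 0.22 and Taok3, a relative of Taok2, −0.42 ± 0.17 (adjusted p = 0.191 and 0.186). These 5 calls were all lost without control mRNA replicate 2 and also without control mRNA replicate 3. Without miR-17-5p mRNA replicate 4, 5 or 6, 2 of the 19 passed, both higher, where 1.51%, 1.88% and 1.98% of all genes were called higher. Without control mRNA replicate 1 the Taok2 call was lost. In that fit 3 of the 19 passed, all higher, where 2.55% of all genes were called higher.

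Of 6 further TEAD factors and cofactors listed, 3 were tested in mRNA and none passed by edgeR, while DESeq2 and limma-voom each called 2, beside 8.01% and 9.18% of all genes. Without replicate 1 of either group edgeR called 1. For Tead3 the log2 fold change was 0.79 ± 0.21 (adjusted p = 0.0518), Tead2 1.10 ± 0.35 (adjusted p = 0.100) and the competing cofactor Vgll4 −0.14 ± 0.21 (adjusted p = 0.778). At an unadjusted p under 0.05, Tead2 and Tead3 passed, as 19% of all genes did.

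The other genes of a published YAP/TAZ target signature gave 12 tested of 16 listed. In mRNA 4 of them rose and none fell, beside 3.11% of all genes called higher. Fold changes above 0 were found for 10 of the 12, and the median log2 fold change was 1.09. Tgfb2, a transforming growth factor ligand, averaged 42.6 ± 3.41 CPM in miR-17-5p libraries and 11.6 ± 2.07 CPM in control libraries and rose by 1.85 ± 0.19 on the log2 scale (adjusted p = 7.77e-04). Myof, a membrane-repair ferlin, rose by 1.51 ± 0.18 (adjusted p = 0.00100), Crim1, a transmembrane protein that binds BMPs, by 1.16 ± 0.15 (adjusted p = 0.00138), and Ccdc80, a matrix protein, by 1.99 ± 0.33 (adjusted p = 0.00851). Nuak2, Nt5e and Ptpn14 had 1.03 ± 0.29, 1.19 ± 0.36 and 1.21 ± 0.41 without passing (adjusted p = 0.0722, 0.0862 and 0.125). Leaving out 1 library at a time gave 3 to 6 higher calls, the fewest without control replicate 3 and the most without miR-17-5p replicate 1, where 0.653% and 4.94% of all genes were called higher.

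By Pearson's r of log2 CPM over the same 8 mRNA libraries and 11077 genes, the genes most like Amotl2 were Vcl (vinculin), Tspan18 (a tetraspanin) and RGD1559896, each with r = 0.99. Ctgf was most like Tnc (tenascin C), Sparc and Aldh1l2, also with r = 0.99 each. For Yap1 they were Plcb4 (a phospholipase C), Ncs1 (neuronal calcium sensor) and Actn4 (an alpha-actinin), with r = 0.99 each. The 8 libraries share treatment, depth and cell mix, so likeness here includes all of these.

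In RISC libraries all 9 genes again had a fitted fold change above 0 with miR-17-5p, and none passed by edgeR over 9443 genes, where 0.371% of all genes were called. At an unadjusted p under 0.05 there were 4, Amotl2, Ctgf, Cyr61 and Axl, beside 20.1% of all genes. DESeq2 called 3, Amotl2, Ctgf and Cyr61, and 13.8% of all genes. Limma-voom called none of the 9 and 0.201% of all genes. The groups did not overlap for 6 of the 9, every miR-17-5p library lying above every control library, which was so for 17.8% of all genes. The median log2 fold change of the 9 was 1.27, beside 0.27 over all genes. The biological coefficient of variation over all genes was 1.23 in RISC and 0.305 in mRNA, so the same fold change was estimated less precisely.

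Amotl2 had 293, 266, 233 and 199 CPM in miR-17-5p RISC replicates 2, 4, 5 and 6, against 21.96, 84.8 and 28.6 CPM in control RISC replicates 1, 2 and 3. The groups were far apart, with control replicate 2 the highest of its group. The log2 fold change was 2.46 ± 0.50 (adjusted p = 0.0725). Ctgf had 1487, 1271, 1151 and 1515 CPM in the miR-17-5p RISC libraries, against 324, 669 and 246 CPM in the control RISC libraries, in the same replicate order. Control replicate 2 was again the highest of its group, and the log2 fold change was 1.71 ± 0.34 (adjusted p = 0.0725). Cyr61 had 1435, 1302, 1029 and 1267 CPM in the miR-17-5p RISC libraries, against 279, 757 and 531 CPM in the control RISC libraries. The groups were apart, with control replicate 1 the lowest, and the log2 fold change was 1.27 ± 0.32 (adjusted p = 0.0725). Without control RISC replicate 2 these 3 genes passed, where 12.0% of all genes did, and the Amotl2 log2 fold change came to 3.29 ± 0.32. Without miR-17-5p RISC replicate 4 Ctgf passed, where 6.08% of all genes did.

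Yap1 had 51.2, 68.2, 52.8 and 71.3 CPM in miR-17-5p RISC replicates 2, 4, 5 and 6, against 0.0642, 33.5 and 24.5 CPM in control RISC replicates 1, 2 and 3. Control replicate 1 held 1 count for Yap1, although it was the deepest RISC library with 13420403 counts. The log2 fold change was 1.66 ± 1.34 (adjusted p = 0.730), and it came to 1.02 without control replicate 1 and 2.31 without control replicate 2. Tead1 had 186, 122, 126 and 87.3 CPM in the miR-17-5p RISC libraries, against 50.8, 86.2 and 0.376 CPM in the control RISC libraries. Here it was control replicate 3 that nearly lacked the message, with 2 counts, and the top control library almost reached the lowest miR-17-5p library. The log2 fold change was 1.51 ± 1.10 (adjusted p = 0.664), and it came to 0.90 without control replicate 3 and 2.34 without control replicate 2.

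Ankrd1 had 40.0, 11.9, 23.8 and 10.0 CPM in miR-17-5p RISC replicates 2, 4, 5 and 6, against 27.3, 0 and 0 CPM in control RISC replicates 1, 2 and 3. The 425 counts of control replicate 1 made the groups overlap, and a count of 0 allows up to 0.385 CPM in control replicate 2 and 0.564 CPM in control replicate 3 (3 counts, counting error only). The log2 fold change of 1.23 ± 2.19 (adjusted p = 0.962) had an error larger than itself, and it came to 0.61 without control replicate 3. Such dropouts, at most 3 counts, were found for Yap1, Tead1 and Ankrd1 in control RISC libraries, in replicate 1, replicate 3 and replicates 2 and 3, and for none of the 9 in miR-17-5p RISC libraries. Their cause was not tested.

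Axl ranged from 121 to 181 CPM in the miR-17-5p RISC libraries and from 51.6 to 90.3 CPM in control RISC libraries. The groups did not overlap, and the log2 fold change was 1.12 ± 0.35 (adjusted p = 0.102). Wwtr1 ranged from 46.6 to 93.9 CPM in the miR-17-5p RISC libraries and from 29.9 to 71.6 CPM in control RISC libraries, with overlap. Lats2 ranged from 150 to 215 CPM in the miR-17-5p RISC libraries and from 119 to 182 CPM in control RISC libraries, also with overlap. Wwtr1 and Lats2 had log2 fold changes of 0.24 ± 0.55 and 0.25 ± 0.27 (adjusted p = 0.975 and 0.864), close to the median of all genes.

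**Figure D3:**
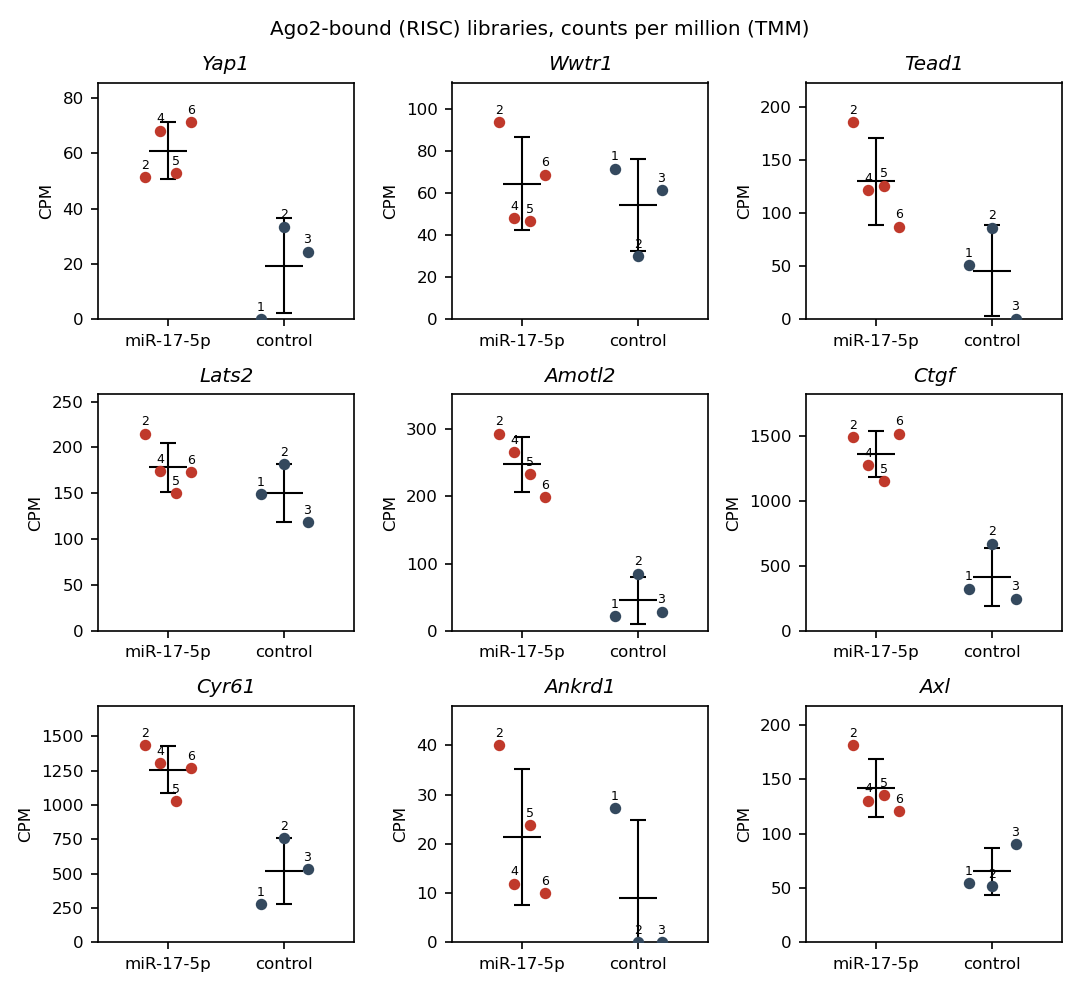
CPM (TMM) of the 9 genes in each Ago2-bound RNA library, miR-17-5p in red and control in dark blue, numbered by replicate, with the mean and SD of each group (SD bars are clipped at 0). Single control libraries are at or near 0 for Yap1 and Tead1, and control replicates 2 and 3 are at 0 for Ankrd1.

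Some marker sums differed between the RISC groups too. The groups overlapped for the sums of beta cell, other hormone cell, endothelial, duct and Schwann markers. Acinar sums were small and lower with miR-17-5p, without overlap. They spanned 0.468 to 12.8 CPM with miR-17-5p and 26.4 to 48.3 CPM with the control mimic. The 1 acinar marker tested in RISC did not pass by edgeR. Stellate and fibroblast markers summed to 16299 to 20068 CPM in the miR-17-5p RISC libraries and 3403 to 7833 CPM in control RISC libraries. Of the 12 tested, Acta2 and Col1a1 rose by edgeR, beside 0.339% of all genes called higher. Their log2 fold changes were 3.38 ± 0.45 and 2.35 ± 0.29 (adjusted p = 0.0257 and 0.0191). The macrophage and leukocyte markers summed to 261 to 380 CPM in the miR-17-5p RISC libraries and 0.188 to 122 CPM in control RISC libraries. Of these Lcp1, a leukocyte actin-bundling protein, averaged 58.5 ± 23.0 CPM in the miR-17-5p RISC libraries and 0.0214 ± 0.0371 CPM in control RISC libraries (SD, n = 4 and 3), below the floor of 3 counts. It entered the fit only through the miR-17-5p libraries, so its call is not read, and none of the other 6 tested passed by edgeR. The Acta2 and Col1a1 calls were lost in edgeR without control RISC replicate 1, where 0.255% of all genes were called, and without miR-17-5p RISC replicate 2, 5 or 6, where no gene at all was called. Leaving out control RISC replicate 2 gave 5 stellate and fibroblast calls, all higher, beside 11.4% of all genes called higher. Per 1000 CPM of the stellate and fibroblast markers the groups overlapped for 8 of the 9 genes, while 37.5% of all genes did not overlap on this scale. Lats2 was the exception and lower, at 8.70 to 10.7 in miR-17-5p RISC libraries and 23.2 to 37.8 in control RISC libraries. The part of these markers in the RISC differences was not tested.

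None of the other pathway genes passed in RISC by edgeR, out of 19 core components and regulators and 12 signature genes. At an unadjusted p under 0.05 there were 3 and 3, and 20.1% of all genes. DESeq2 called 2 and 3 of them higher, beside 12.1% of all genes, and limma-voom called 0 and 1, beside 0.169% of all genes. Without control RISC replicate 1, 2 or 3, edgeR called 1, 4 and 3 of these 31 genes higher, where 0.255%, 11.4% and 1.12% of all genes were called higher. Without miR-17-5p RISC replicate 4 it called 1, beside 5.99% of all genes. Their median log2 fold changes were 0.49 and 1.09, beside 0.27 over all genes. Ccdc80 had the smallest p, with 696 ± 87.3 CPM in miR-17-5p RISC libraries and 106 ± 75.3 CPM in control RISC libraries (SD, n = 4 and 3) and a log2 fold change of 2.71 ± 0.46 (adjusted p = 0.0525). Map4k4 averaged 570 ± 187 CPM in miR-17-5p RISC libraries and 223 ± 122 CPM in control RISC libraries (log2 fold change 1.35 ± 0.39, adjusted p = 0.0804). Tead2 ranged from 4.06 to 19.2 CPM in the miR-17-5p RISC libraries and was at 0 in all 3 control RISC libraries. Against a floor of 3 counts in each control library its mean was 36.5-fold higher. That floor covers counting error only and not dropouts such as those of Yap1, Tead1 and Ankrd1, so the value is no lower bound. It entered the fit only through the miR-17-5p libraries, so no p is given. Tead3 and Vgll4 had log2 fold changes of 0.72 ± 0.78 and −0.27 ± 1.47 (adjusted p = 0.872 and 0.986).

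**Figure D4:**
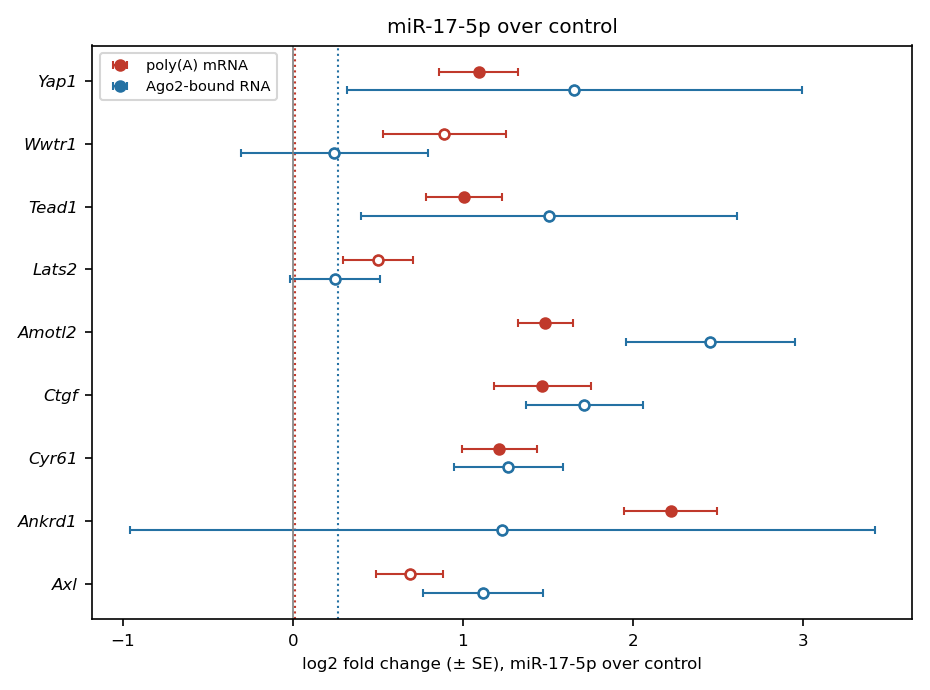
Log2 fold change of each gene, miR-17-5p over control, with its SE, in poly(A) mRNA (red) and Ago2-bound RNA (blue). Filled points passed an adjusted p of 0.05 over all genes, and dotted lines mark the median of all genes, 0.01 in mRNA and 0.27 in RISC.

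Whether the miR-17-5p change in RISC exceeded that in mRNA was tested as an interaction over all 4 groups. None of the 9 passed by edgeR, where 13.4% of 11418 genes were called in either direction, and none had an unadjusted p under 0.05, beside 25.3% of all genes. DESeq2 called none of the 9, where it called 19.4% of all genes. Limma-voom called 0 of all 11418 genes, so its count says nothing about the 9. Of the fold changes 6 lay above 0, with a median of 0.23 beside 0.40 over all genes. DESeq2 size factors lowered that median of all genes to 0.27, so changes are read against it. Amotl2 had the largest, 0.96 ± 0.49 on the log2 scale (adjusted p = 0.253), and it passed without control RISC replicate 2, at 2.01 ± 0.30, where 24.4% of all genes did. Without that library Ctgf came to 0.96, Cyr61 to 0.63, Yap1 to 1.48 and Tead1 to 1.46, none of which passed. Ctgf had 0.23 ± 0.47 and Axl 0.41 ± 0.36 (adjusted p = 0.913 and 0.638). Cyr61 had 0.04 ± 0.41 (adjusted p = 1.00), and with DESeq2 size factors its value lay below 0. Yap1 and Tead1 had 0.53 ± 1.32 and 0.50 ± 1.18 (adjusted p = 0.941 and 0.936). Wwtr1, Lats2 and Ankrd1 lay below 0, at −0.72 ± 0.74, −0.28 ± 0.35 and −1.06 ± 1.89 (adjusted p = 0.717, 0.796 and 0.896). Without control RISC replicate 1, the library with 425 counts for Ankrd1, the fitted Ankrd1 difference turned to 8.19 ± 1.33, a value set against control RISC libraries at 0 and not read as a call.

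How far each message stood in Ago2-bound against poly(A) RNA was compared within each treatment. Over all genes the median log2 RISC over mRNA was −0.15 in miR-17-5p cells and −0.69 in control cells, and −0.26 and −0.87 with DESeq2 size factors. In miR-17-5p cells 6 of the 9 passed, all higher in RISC, while 21.7% of the 10871 genes tested were called higher. In control cells 1 passed, higher in RISC, and 5.96% of the 10170 genes tested were called higher. The difference between treatments is the interaction given above, in which none of the 9 passed, so the unequal counts do not show a difference between miR-17-5p and control cells.

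In miR-17-5p cells Tead1 averaged 114 CPM in RISC and 23.1 CPM in mRNA when both library types were scaled together, a log2 ratio of 2.30 ± 0.23 (adjusted p = 1.45e-05). It was the largest ratio of the 9. The kinase message Lats2 averaged 154 CPM in RISC and 48.4 CPM in mRNA (1.67 ± 0.18, adjusted p = 2.67e-05), and the TAZ message Wwtr1 55.7 CPM in RISC and 17.4 CPM in mRNA (1.68 ± 0.28, adjusted p = 4.82e-04). Among the ratios of all genes, Tead1 stood at the percentile 97.6, Lats2 at 92.0 and Wwtr1 at 92.1.

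Among the targets, Cyr61 averaged 1088 CPM in RISC and 348 CPM in mRNA of miR-17-5p cells (1.64 ± 0.19, adjusted p = 3.23e-05). Ctgf averaged 1172 CPM in RISC and 815 CPM in mRNA, a log2 ratio of 0.53 ± 0.23 that did not pass (adjusted p = 0.0860). The difference between these 2 genes was not tested. Yap1 was higher in RISC by 0.92 ± 0.19 and Amotl2 by 0.55 ± 0.16 on the log2 scale (adjusted p = 0.00180 and 0.0144). Axl and Ankrd1 had −0.14 ± 0.19 and −0.86 ± 0.42 (adjusted p = 0.583 and 0.118). Ctgf passed without miR-17-5p mRNA replicate 4, where 38.7% of all genes did in either direction. Ankrd1, lower in RISC, passed without miR-17-5p RISC replicate 2, where 43.1% of all genes did in either direction.

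In control cells Lats2 averaged 134 CPM in RISC and 38.5 CPM in mRNA, a log2 ratio of 1.80 ± 0.34 (adjusted p = 0.0124). The call was lost without control mRNA replicate 1, and also without control mRNA replicate 2, while the ratio kept its sign. Cyr61 averaged 466 CPM in RISC and 171 CPM in mRNA (1.45 ± 0.42, adjusted p = 0.0546), and it passed without control RISC replicate 1, where 38.6% of all genes did in either direction. Ankrd1 is not read there, since the control RISC libraries left were at 0. Wwtr1 had 2.24 ± 0.88 and Tead1 1.63 ± 1.58 (adjusted p = 0.130 and 0.609). Tead1 passed without control RISC replicate 3, the library with 2 counts of it, where 37.8% of all genes did in either direction. Amotl2 and Axl had −0.57 ± 0.66 and −0.72 ± 0.39 (adjusted p = 0.684 and 0.283), near the median of all genes. Without control RISC replicate 2, Amotl2 came to −1.44 and Tead1 to 0.81. Ctgf, Yap1 and Ankrd1 had 0.14 ± 0.44, 0.24 ± 1.73 and 0.00 ± 2.43 (adjusted p = 0.903, 0.961 and 1.00), and the signs of these 3 changed with the processing.

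**Figure D5:**
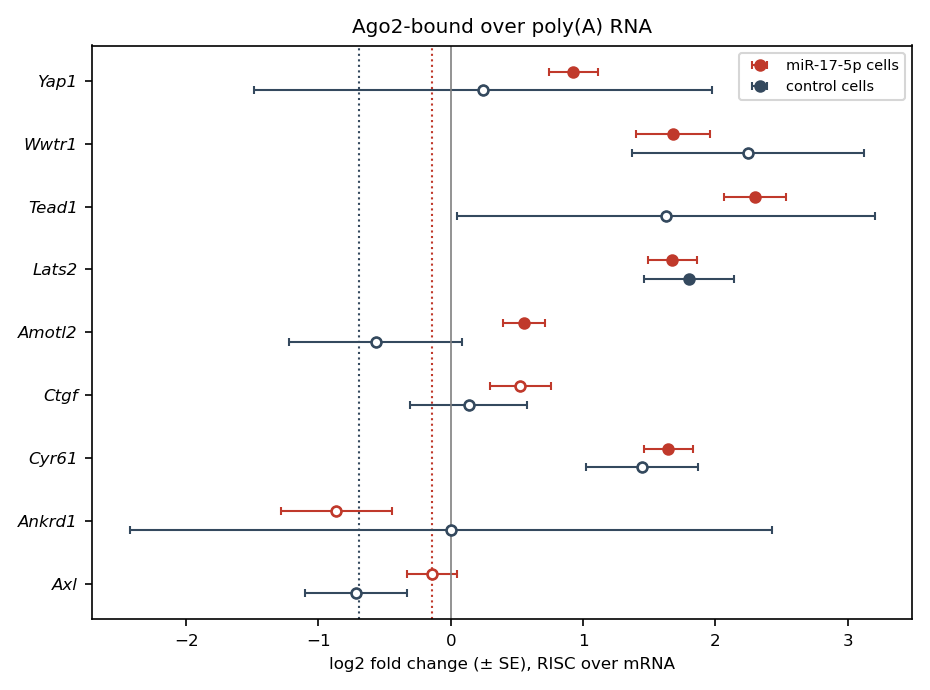
Log2 ratio of Ago2-bound over poly(A) RNA for each gene, with its SE, in miR-17-5p cells (red) and control cells (dark blue). Filled points passed an adjusted p of 0.05 over all genes, and dotted lines mark the median of all genes, −0.15 in miR-17-5p cells and −0.69 in control cells.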

How the data were processed

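The data were tables of counts per gene for 15 libraries. The deposited counts were made by the authors with TopHat2 2.0.10 and Bowtie2 on the rat build rn5 and with HTSeq, per the submitters' processing notes; for Bowtie2 and HTSeq no version is stated there. Libraries were single-end and carried no strand, per the labels' protocols, so a gene cannot be told apart from one that overlaps it on either strand. Lines of the counting program that name no gene stayed out: alignments that were not unique made up 15.0% to 31.2% of a library and ambiguous ones 0.151% to 0.454%. No library differed from another of its group by less than counting error (chi-square per degree of freedom 6.78 to 323).

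Groups came from the sample titles. Each comparison was fitted on the counts of its own groups with edgeR 4.0.16 (quasi-likelihood, robust, TMM, filterByExpr) in R 4.3.3, with Benjamini-Hochberg adjustment over all genes tested and a threshold of 0.05. All 9 measured genes passed the filter in each fit. The fits were tested on simulated data with known changes. Alternatives were DESeq2 1.42.0 size factors or its Wald test, limma 3.58.1 voom, a mean of at least 50 counts or no filter, a replicate block and each library left out. Levels carry the precision of the library totals, 3379456 to 21056240 counts, and floors of 3 counts cover counting error only.

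The genes, the pathway lists and the marker lists were chosen with earlier results of these data known. Named genes were the 9 measured, each pathway gene called in mRNA or RISC, at most 3 more per pathway list and 3 per marker list by smallest p, and the 3 most similar genes for Amotl2, Ctgf and Yap1. Col1a1, Col1a2, Col3a1, Ins1 and Ins2 fall outside this rule and were named after their values were seen. Coordinates and sequences come from RefSeq GRCr8, not from the build of the counts, and 16568 of 17055 symbols were found there.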

Additional observations from a re-analysis of the deposited data

How the results depend on the processing

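Calls among the 9 genes are given with the share of all genes called in either direction. The 6 calls in mRNA (3.87%) gave 0 with the replicate block, where no gene at all was called, and 2 to 7 with 1 library left out (0.750% to 7.42%); all 9 fold changes stayed above 0 under each alternative run. For RISC, 0 calls (0.371%) gave 1 with no filter (0.444%), 3 with DESeq2 (13.8%) and 0 to 3 with 1 library left out (0% to 12.0%). The interaction gave 0 to 1 with 1 library left out (10.3% to 24.4%). For RISC over mRNA, control cells gave 3 calls with DESeq2 (36.8%), 0 with the replicate block (3.32%) and 0 to 3 with 1 library left out (12.2% to 42.4%). In miR-17-5p cells there were 5 with the block (33.5%) and 6 to 7 with 1 library left out (37.8% to 48.5%). Without control RISC replicate 1, Ankrd1 was the interaction call and 1 of the 3 calls in control cells. Both Ankrd1 calls were set against control RISC libraries at 0 and are not read. Deviations of same-numbered libraries from their group means had correlations between −0.19 and 0.05. In RISC over mRNA these lay above the highest correlation with another number for some libraries and below it for others. With so few and such variable libraries, this cannot decide whether the title numbers pair libraries. No block could be fitted in RISC, where only number 2 is shared. Signs turned, on the log2 scale, as follows. Wwtr1 in RISC ran from −0.050 (without control RISC replicate 2) to 0.43 with 1 library left out. In the interaction with 1 library left out, Cyr61 ran from −0.18 (without control mRNA replicate 1) to 0.63, Lats2 from −0.40 to 0.077 (without control RISC replicate 2) and Ankrd1 from −1.47 to 8.19 (without control RISC replicate 1). There Cyr61 was −0.10 with DESeq2 size factors and with the Wald test, and Ankrd1 was 2.18 with limma-voom and 1.68 with the replicate block. In RISC over mRNA of control cells with 1 library left out, Yap1 ran from −0.50 (without control RISC replicate 2) to 0.82, Ctgf from −0.42 (the same library) to 0.40 and Ankrd1 from −8.77 (without control RISC replicate 1) to 0.59. There Ctgf was −0.059 with DESeq2 size factors and with the Wald test and −0.012 with limma-voom. Ankrd1 was −0.26 with DESeq2 size factors and with the Wald test, −0.0050 with no filter, −0.046 with the mean of 50 counts, −4.66 with limma-voom and −6.17 with the replicate block, and Yap1 was −2.21 with limma-voom and −0.46 with the block. The cause was not tested. In control RISC libraries 4 of the 27 values of the 9 genes rested on at most 3 counts.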
